A study of Homo sapiens with 6 samples.

Results

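The 54 genes described here carry human cells through G2 phase, mitosis and cytokinesis, and were compared between U2OS cells given a PARG inhibitor and U2OS cells given solvent. They were chosen by name: mitotic kinases and cyclins, the machinery of kinetochore and spindle, and the genes of cytokinesis. All 54 symbols matched 1 row each among the 60708 gene rows, and all 54 had enough counts to be tested. U2OS is an established human osteosarcoma line. DMSO cells, 3 libraries, received the solvent, and PARGi cells, 3 libraries, received PDD00017273 at 25 µM, both for 4 days in the same medium. The compound inhibits poly(ADP-ribose) glycohydrolase, the enzyme that takes poly(ADP-ribose) chains apart. The design text calls the replicates biological, and nothing says whether they came from separate cultures, so the p-values measure the spread between these libraries, which may be technical. Both groups are this 1 wild-type line.

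Transcripts of these genes build up late in the cell cycle and fall again after division. CDK1 bound to cyclin B starts mitosis, the spindle checkpoint holds chromosomes until every kinetochore is attached, and CDC20 then turns on the anaphase-promoting complex, a ubiquitin ligase that destroys cyclin B and securin. Late transcription is driven by B-MYB, FOXM1 and the MuvB core acting through CHR elements in the promoters, and by NF-Y, which binds CCAAT boxes. When p53 induces p21, MuvB joins the DREAM repressor at the CHR elements. In a bulk culture these transcripts follow the share of cells in G2 and mitosis as well as the amount per cell, and fewer such cells and less RNA per cell cannot be told apart.

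Depth was 60286931 to 80605145 counts per library. Levels are in CPM, counts scaled to the library total. Of 8 bone and mesenchymal markers, 6 reached an average of 1 CPM, with COL1A1 at 4374 ± 268 CPM and RUNX2 at 83.3 ± 1.14 CPM in DMSO (SD, n = 3), while the mature osteoblast markers SP7 and BGLAP were under 0.1 CPM. TERT and CDKN2A, which this line keeps silent, were under 0.1 CPM too. ATRX, listed with them, was not low: the DMSO libraries averaged 295.9 ± 9.30 CPM and the PARGi libraries 271.6 ± 2.76 CPM (SD, n = 3). Its log2 fold change was -0.12 (edgeR adjusted p = 0.00102). The summed level of 4 epithelial markers was 27.4 to 28.5 CPM in DMSO and 18.4 to 21.7 CPM in PARGi, mostly KRT14, and none of them was under 0.1 CPM. That of 3 endothelial markers was 2.85 to 3.68 CPM in DMSO and 3.17 to 4.07 CPM in PARGi. The part of the KRT14 difference in the results below was not tested.

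The mitotic genes stood close to their control level after 4 days of inhibitor. Of the 54, 12 rose and 4 fell at an adjusted p under 0.05 (edgeR quasi-likelihood test over all genes, Benjamini-Hochberg adjustment), and 38 did not pass. Over all tested genes 24.3% passed. Among the members called higher, MAD2L1 and CDK1 rose most, by 20.5% and 13.8%, and among those called lower CDC20 fell by 7.84%, the most. In 52 of the 54, the change was smaller than 1.2-fold either way. The share called higher was 22.2%, against 13.2% of the 20409 genes tested, and the share called lower was 7.41%, against 11%. Among the 10143 genes that averaged 10 CPM or more, where 52 of the 54 lie, 22.1% were called higher and 13.6% lower, so the share of members called higher was that of abundant genes. A log2 fold change above 0 was found for 35 of the 54 and for 48.1% of all tested genes. The median log2 fold change of the 54 was 0.019, that of all tested genes was -0.0070, and that of the genes with at least 10 CPM was 0.018. The members' median absolute log2 fold change was 0.050, and that of all tested genes 0.11. These 2 values are not matched for abundance: the median standard error was 0.027 for the members and 0.061 for all tested genes.

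Libraries of the 2 groups were fully apart for 21 members: all 3 PARGi libraries lay above all 3 DMSO libraries for 16, and below them for 5. Over all tested genes the same held for 19.8% and 18.2%. The cumulative distribution of log2 fold changes shows the members as a steep curve around 0 inside the broad curve of all tested genes. Many of the latter had lower counts and larger standard errors. The count of falls changed as single libraries were left out. It was 6 without DMSO replicate 1, and 1 without PARGi replicate 2. It was 2 without DMSO replicate 2 or 3 and 2 without PARGi replicate 1 or 3. The share of all tested genes called in these smaller fits is not given here. A change in the members' count therefore cannot be told from a change in calls over all genes. With upper-quartile scaling 10 members were higher and 6 lower (9.81% and 14.4% of all tested genes), so the higher ones made up 62.5% of the calls in place of 75%. That scaling moved the median of all tested genes from -0.0070 to -0.032.

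**Figure D1:**
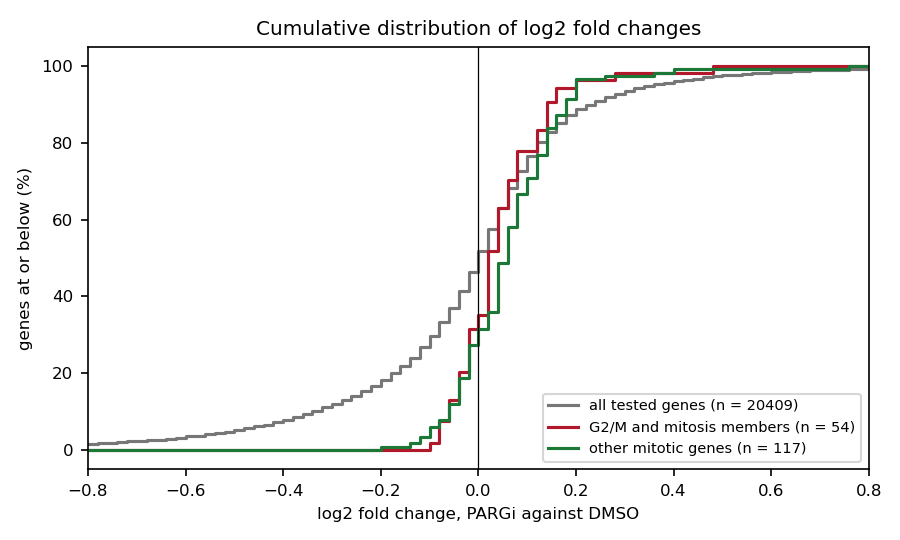
Cumulative share of genes (percent, vertical axis) at or below a log2 fold change of PARGi against DMSO (horizontal axis), for the 54 G2/M and mitosis genes, 117 other mitotic genes and all 20409 tested genes. The member curve is steep around its median of 0.019, and all but 2 members lie within 1.2-fold of the control.

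The small upward median changed sign without 1 control library. DMSO replicate 1 was the lowest of the 6 libraries for 31 of the 54 members (57.4%), whereas it was the lowest for 18.3% of the genes with at least 10 CPM. Its median deviation from each member's own mean was -0.051 on the log2 scale, and those of the other 5 libraries lay between 0.0033 and 0.024. The summed level of the 54 genes was 9850 CPM in DMSO replicate 1, 10210 and 10290 CPM in DMSO replicates 2 and 3, and 10290, 10370 and 10250 CPM in PARGi replicates 1 to 3. DMSO replicate 1 was the low library, and the sums of the other DMSO libraries overlapped those of PARGi or lay just below. With the replicate number as a block, 11 members were higher and 3 lower (12.2% and 10.1% of all tested genes). Without DMSO replicate 1 the median log2 fold change was -0.0015, with 10 members called higher and 6 lower. With upper-quartile scaling it was -0.0059.

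**Figure D2:**
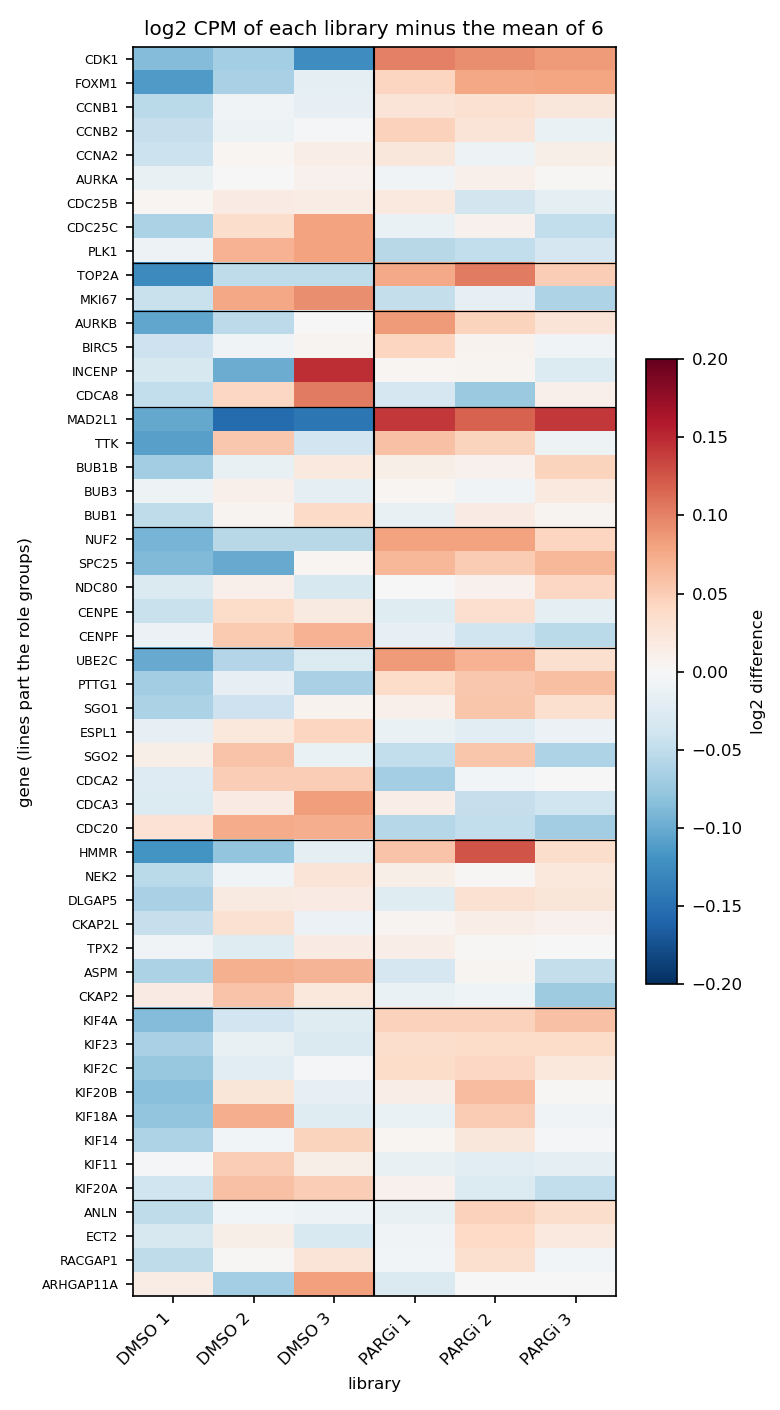
Deviation of log2 CPM in each library (columns) from the mean of the 6 libraries for 52 members (rows, parted by role; NUSAP1 and PRC1 are left out), in log2 units from -0.2 (blue) to 0.2 (red). DMSO replicate 1 is blue for most genes. MAD2L1 and CDK1 change color between the groups in all libraries, as do other members, among them TOP2A and, the other way, CDC20.

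NUSAP1, a microtubule bundler at spindles, and PRC1, which crosslinks the central spindle, are set aside in what follows. Their levels were 0.591 ± 0.0203 and 0.995 ± 0.0455 CPM in DMSO (SD, n = 3), whereas the other 52 members had means of 20.2 to 929 CPM. In GENCODE 29 (a gene annotation on GRCh38), 62.2% of the exonic bases of NUSAP1 and 57.6% of those of PRC1 also belong to another gene on the same strand, ENSG00000285920 and ENSG00000284946. The first of these was listed at 0 counts in all libraries and the second had 439 to 666 counts. How shared reads were counted is not given in the sources used here, so neither value can be read as the level of the gene. NUSAP1 had 39, 37 and 43 counts in DMSO and 41, 72 and 63 in PARGi, and its log2 fold change of 0.47 ± 0.21 (SE) did not pass (edgeR adjusted p = 0.102). PRC1 was at -0.081 ± 0.17 (edgeR adjusted p = 0.786). Leaving both out was a choice made after seeing the data. As neither was called, it could not change the counts of 12 and 4. NUSAP1 lay above and PRC1 below the median, which stayed at 0.019.

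**Figure D3:**
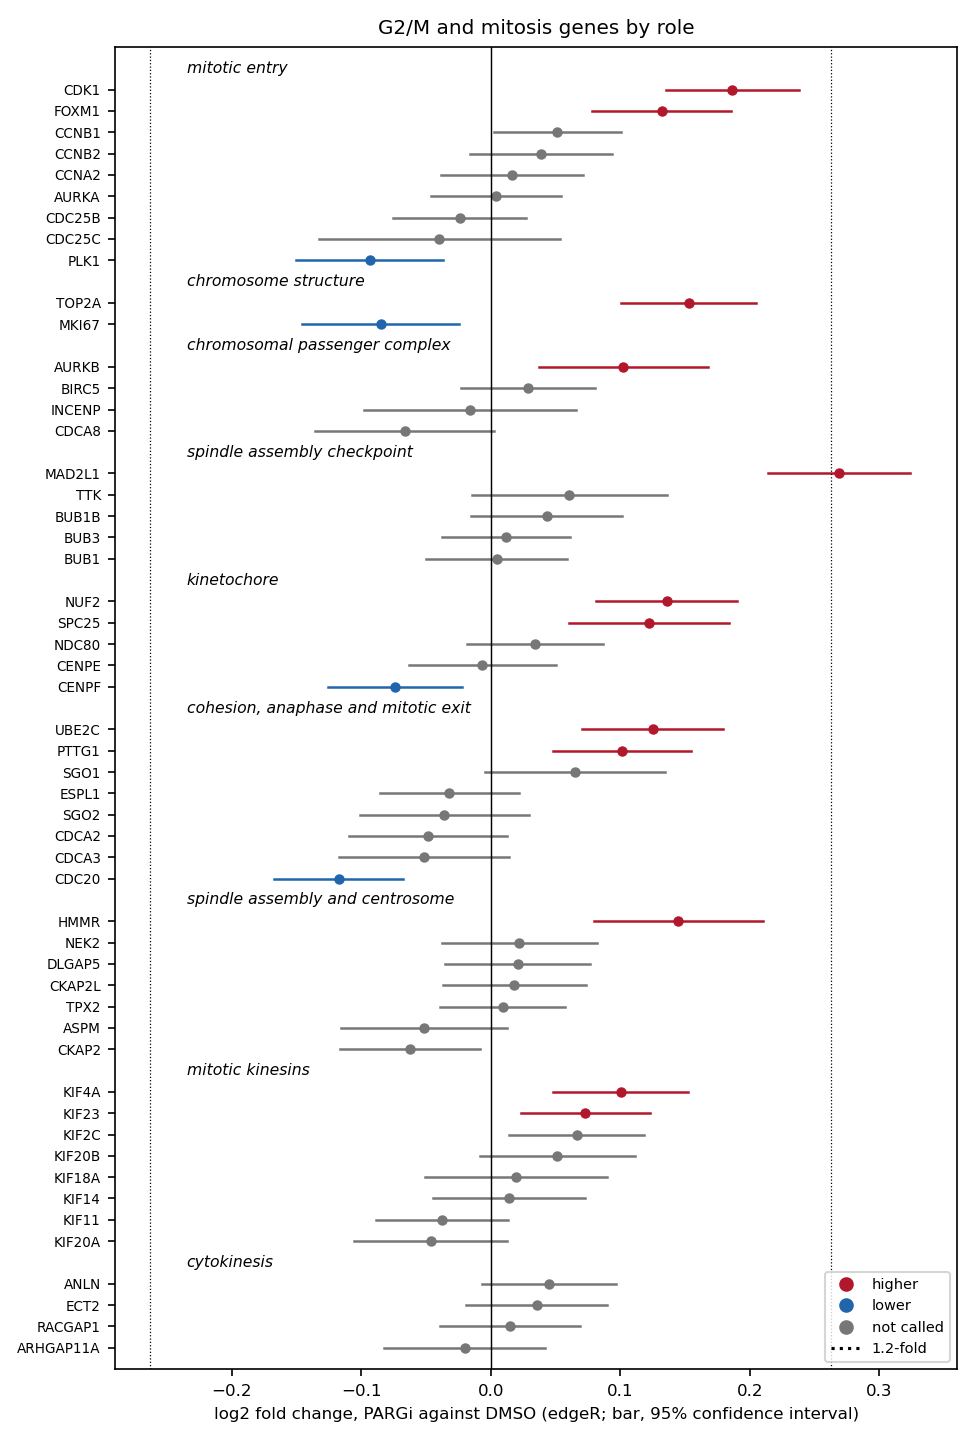
Log2 fold change of PARGi against DMSO (horizontal axis, edgeR) with its 95% confidence interval (bars) for 52 members grouped by role; red genes were called higher, blue lower, gray not called, and dotted lines mark 1.2-fold. MAD2L1 alone reaches the dotted line, and PLK1, MKI67, CENPF and CDC20 are the blue points.

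CHR and CCAAT letters were frequent before the starts of these genes. RefSeq's table (GRCh38.p14) held 45 of the 54. The entries not found were AURKA, BIRC5, BUB3, CDCA2, FOXM1, RACGAP1, TPX2, TTK and UBE2C. In the 250 bases before the annotated start, on either strand and with overlaps allowed, the CHR core TTTGAA was found in 22 of 45 members (48.9%) and in 13.6% of all 27305 promoters. The variant TTTAAA was found in 12 (26.7% against 11.4%), CCAAT in 34 (75.6% against 33%), and 2 or more CCAAT in 20 (44.4% against 10%). TTTGAA together with CCAAT stood in 20 (44.4% against 4.85%). In 99 promoters of the other mitotic genes described below, TTTGAA was in 22.2%, TTTAAA in 4.04% and CCAAT in 50.5%. Of these promoters, 25.3% held 2 or more CCAAT, and 14.1% held TTTGAA together with CCAAT. Members called in either direction carried the letters: TTTGAA was in 6 of the 10 higher members, 3 of the 4 lower ones and 13 of the 31 not called, and CCAAT in 9, 4 and 21. These are matches of letters, with no binding measured. The stretches below lie before the RefSeq start and outside GENCODE 29 exons. They come from members that rose, fell or did not pass, which all hold CCAAT and, except for CENPF, TTTGAA. Capitals mark TTTGAA and CCAAT or their reverse complements TTCAAA and ATTGG. The variant TTTAAA, present in the CDK1 and CENPF stretches, is not marked. Stretches run 5′ to 3′ on the strand of the gene. CDK1, TOP2A and KIF4A rose, CDC20, MKI67 and CENPF fell, and KIF11 was not called. In MKI67 the second TTTGAA overlaps the second ATTGG, and CENPF holds 3 CCAAT boxes and no TTTGAA.
CDK1 (chr10:60778151-60778270, plus strand): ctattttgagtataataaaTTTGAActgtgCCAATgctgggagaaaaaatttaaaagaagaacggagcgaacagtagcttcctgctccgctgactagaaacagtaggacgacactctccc
TOP2A (chr17:40417977-40418096, minus strand): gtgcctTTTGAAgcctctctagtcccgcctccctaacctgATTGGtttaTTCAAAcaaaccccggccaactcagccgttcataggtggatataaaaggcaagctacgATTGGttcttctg
KIF4A (chrX:70289994-70290083, plus strand): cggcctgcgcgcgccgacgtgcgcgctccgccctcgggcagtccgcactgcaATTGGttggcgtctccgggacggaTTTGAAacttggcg
CDC20 (chr1:43358861-43358950, plus strand): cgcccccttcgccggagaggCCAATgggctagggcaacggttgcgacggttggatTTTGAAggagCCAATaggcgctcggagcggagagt
MKI67 (chr10:128126424-128126543, minus strand): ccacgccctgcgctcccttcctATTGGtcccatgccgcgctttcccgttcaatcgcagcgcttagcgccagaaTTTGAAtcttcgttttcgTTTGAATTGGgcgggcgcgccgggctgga
CENPF (chr1:214603075-214603174, plus strand): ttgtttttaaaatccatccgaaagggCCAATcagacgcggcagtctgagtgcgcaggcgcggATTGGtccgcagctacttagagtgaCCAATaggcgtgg
KIF11 (chr10:92593050-92593129, plus strand): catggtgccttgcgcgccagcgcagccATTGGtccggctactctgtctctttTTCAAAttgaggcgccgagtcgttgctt

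The role groups that follow are small, and among genes with at least 10 CPM 22.1% were called higher and 13.6% lower. Whether any group differs from these shares was not tested. Among the genes of mitotic entry, 2 of 9 rose and 1 fell (22.2% and 11.1%). CDK1 (ENSG00000170312.16, chr10:60778331-60794852, plus strand) encodes the kinase that starts mitosis. It stood at 199, 202 and 194 CPM in DMSO replicates 1 to 3 and at 227, 225 and 224 CPM in PARGi replicates 1 to 3. The groups were well apart, and the log2 fold change was 0.19 ± 0.025 (SE; a rise of 13.8%, 95% confidence interval 9.83% to 17.9%, edgeR adjusted p = 4.43e-06). FOXM1 (ENSG00000111206.13), a transcription factor of late cell cycle genes, had 362, 374 and 386 CPM in DMSO and 403, 413 and 414 CPM in PARGi. It was higher by 0.13 ± 0.026 (SE) on the log2 scale (edgeR adjusted p = 0.000521), and DMSO replicate 3 came closest to the PARGi libraries. FOXM1 shares 781 of 4899 exonic bases with ITFG2 on the opposite strand.

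PLK1 (ENSG00000166851.15), the kinase of centrosome maturation and bipolar spindles, moved the other way. Its level was 137, 145 and 146 CPM in DMSO and 133, 134 and 135 CPM in PARGi. The groups did not overlap, and the log2 fold change was -0.094 ± 0.027 (SE), edgeR adjusted p = 0.0142. The call was lost without PARGi replicate 1 (-0.089) or without PARGi replicate 2 (-0.092), and over 16 alternatives the adjusted p ran from 0.00198 to 0.064. CCNB1, cyclin B1, averaged 372.6 ± 6.44 CPM in the DMSO libraries and 386.2 ± 1.04 CPM in the PARGi ones (SD, n = 3), with the groups apart and a log2 fold change of 0.051 that did not pass (edgeR adjusted p = 0.124). Cyclin B2, cyclin A2, AURKA, CDC25B and CDC25C lay between -0.040 and 0.039, with overlapping groups. For AURKA the 95% interval ran from -3.14% to 3.80%.

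TOP2A and MKI67, both bound to mitotic chromosomes, changed in opposite directions. TOP2A (ENSG00000131747.15, chr17:40388516-40417950, minus strand) encodes the topoisomerase that untangles sister chromatids. It had 849, 895 and 895 CPM in DMSO and 977, 997 and 960 CPM in PARGi, higher in every PARGi library, at a log2 fold change of 0.15 ± 0.025 (SE), edgeR adjusted p = 7.39e-05. MKI67 encodes Ki-67, the proliferation marker that coats mitotic chromosomes. It had 676, 736 and 744 CPM in DMSO and 674, 690 and 668 CPM in PARGi. DMSO replicate 1 lay among the PARGi libraries, which makes MKI67 the 1 called member with overlapping groups. Its log2 fold change was -0.085 ± 0.029 (SE), edgeR adjusted p = 0.0359. The call was lost without DMSO replicate 2 (-0.067), DMSO replicate 3 (-0.061), PARGi replicate 1 (-0.082), PARGi replicate 2 (-0.098) or PARGi replicate 3 (-0.075), and the adjusted p over 16 alternatives ran from 0.00097 to 0.163.

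Of the 4 chromosomal passenger genes, which correct faulty attachments, AURKB rose. This kinase gene had 56.5, 58.5 and 60.8 CPM in DMSO and 64.5, 62.7 and 61.8 CPM in PARGi. The groups nearly touched, and the log2 fold change was 0.10 ± 0.031 (SE), edgeR adjusted p = 0.0196. The call was lost with upper-quartile scaling (0.078), without DMSO replicate 1 (0.074), without PARGi replicate 1 (0.086) and without PARGi replicate 2 (0.11), within a range of adjusted p from 0.00317 to 0.136 over 16 alternatives. BIRC5 (survivin), INCENP and CDCA8 (borealin) had log2 fold changes of 0.029, -0.016 and -0.067 and overlapping groups. INCENP varied most within a group, from 167 to 198 CPM in DMSO.

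In the spindle assembly checkpoint, MAD2L1 was the 1 of 5 genes that rose, and it had the smallest p of all members. MAD2L1 (ENSG00000164109.14, chr4:120055608-120067074, minus strand) encodes MAD2, which unattached kinetochores load onto CDC20. It had 90.5, 87.3 and 87.9 CPM in DMSO and 107, 106 and 107 CPM in PARGi. No DMSO library came near a PARGi library, and the log2 fold change was 0.27 ± 0.026 (SE), a rise of 20.5% (95% confidence interval 15.98% to 25.1%, edgeR adjusted p = 4.96e-08). Over the alternatives it ran from 0.24 to 0.28. The other checkpoint genes, BUB1, BUB1B (BubR1), BUB3 and the kinase gene TTK (MPS1), lay between 0.0045 and 0.061 and did not pass. BUB1 averaged 198.1 ± 6.22 CPM in the DMSO libraries and 198.8 ± 2.14 CPM in the PARGi ones (SD, n = 3), which bounds its change to between -3.42% and 4.18%.

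At the outer kinetochore, 2 of the 3 listed subunits of the NDC80 complex, the microtubule-binding complex, rose. NUF2 had 96.2, 98.7 and 98.7 CPM in DMSO and 109, 109 and 106 CPM in PARGi, clear of overlap, at a log2 fold change of 0.14 ± 0.026 (SE), edgeR adjusted p = 0.000444. SPC25 had 68.3, 67.7 and 72.9 CPM in DMSO and 76.1, 75.3 and 76.1 CPM in PARGi, at 0.12 ± 0.030 (SE), edgeR adjusted p = 0.004. NDC80 itself did not pass, at 0.034 ± 0.025 (SE), edgeR adjusted p = 0.374, and the fourth subunit SPC24, from the other mitotic genes, was at 0.093 ± 0.035 (SE), edgeR adjusted p = 0.0579. Whether the subunits differ from each other was not tested. CENPF, a large coiled-coil protein of the outer kinetochore, had 610, 637 and 644 CPM in DMSO and 608, 597 and 592 CPM in PARGi. The groups were separate by a narrow margin, and the log2 fold change was -0.074 ± 0.025 (SE), edgeR adjusted p = 0.0326. It was -0.074 and not called with the replicate number as a block, -0.066 without DMSO replicate 2, -0.059 without DMSO replicate 3, -0.072 without PARGi replicate 2 and -0.065 without PARGi replicate 3, all without a call (adjusted p over 16 alternatives 0.00487 to 0.158). CENPE, the kinetochore kinesin, stood at -0.0065 on the log2 scale.

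Of 8 genes of cohesion, anaphase and mitotic exit, 2 rose and 1 fell, and the fall had the smallest p among falling members. CDC20 (ENSG00000117399.14, chr1:43358955-43363203, plus strand), the activator of the anaphase-promoting complex, had 285, 294 and 294 CPM in DMSO and 269, 270 and 266 CPM in PARGi. All PARGi libraries were lower, at a log2 fold change of -0.12 ± 0.024 (SE), edgeR adjusted p = 0.000822, and the value stayed between -0.14 and -0.11 over the 16 alternatives. UBE2C, the ubiquitin-conjugating enzyme that works with the same complex, rose from 166, 171 and 175 CPM in DMSO to 189, 187 and 183 CPM in PARGi, at 0.12 ± 0.026 (SE), edgeR adjusted p = 0.00105. PTTG1, securin, which the complex destroys at anaphase, rose from 119, 123 and 119 CPM to 128, 130 and 130 CPM (0.10 ± 0.026, edgeR adjusted p = 0.00545). Its near-identical copy PTTG2 had at most 5 counts in a library. ESPL1 (separase), the centromere protectors SGO1 and SGO2, CDCA2 and CDCA3 lay between -0.052 and 0.065 and did not pass. SGO1 was the highest of these, from 37.4, 37.97 and 39.3 CPM in DMSO to 39.4, 40.7 and 40.0 CPM in PARGi.

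**Figure D4:**
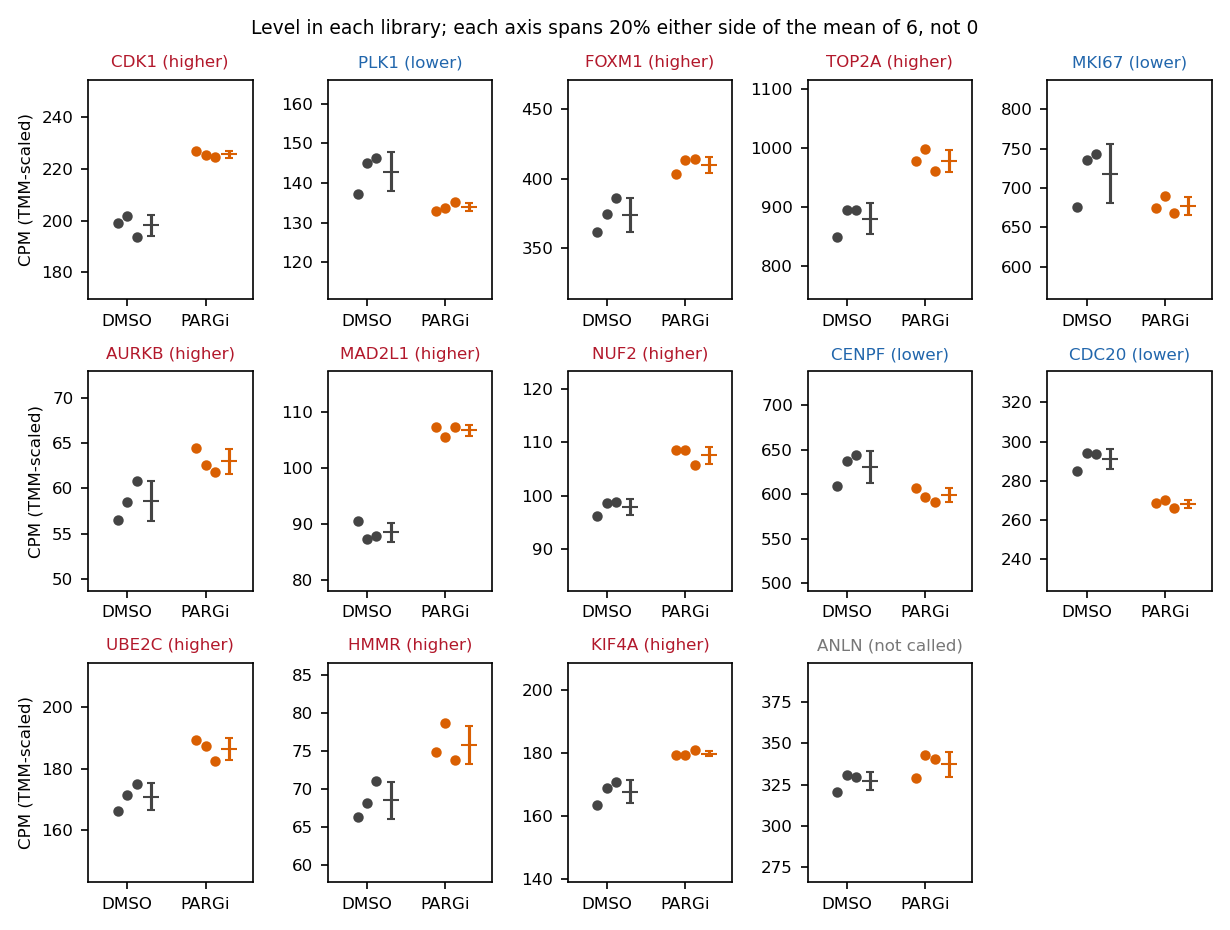
Level in each library (CPM after TMM scaling, vertical axis; each axis spans 20% either side of the mean of 6 libraries and does not start at 0) for 14 members, with the mean and SD of 3 libraries beside the points. MAD2L1 and CDK1 show the widest gap between DMSO and PARGi, and DMSO replicate 1 of MKI67 lies among the PARGi libraries.

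Of 8 spindle and centrosome genes, 1 rose, and NUSAP1, set aside above, is counted among the 8. HMMR, a microtubule and hyaluronan binding protein, had 66.3, 68.2 and 71.1 CPM in DMSO and 74.9, 78.6 and 73.8 CPM in PARGi. It was higher in every PARGi library, by 0.14 ± 0.031 (SE) on the log2 scale (edgeR adjusted p = 0.00137). TPX2, the activator of AURKA, averaged 424.6 ± 6.03 CPM in the DMSO libraries and 427.3 ± 2.31 CPM in the PARGi ones (SD, n = 3), with an interval from -2.69% to 4.06%. DLGAP5, ASPM, CKAP2, CKAP2L and the centrosome kinase gene NEK2 lay between -0.062 and 0.022. CKAP2 had all PARGi libraries below the DMSO libraries but did not pass (edgeR adjusted p = 0.0878, and 0.018 to 0.389 over 16 alternatives, of which 4 called it lower).

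Of 8 mitotic kinesin genes, 2 rose (25%, against 22.1% of genes with at least 10 CPM). KIF4A, which condenses chromosomes and shortens the central spindle, had 164, 169 and 171 CPM in DMSO and 179, 179 and 181 CPM in PARGi. The groups did not overlap, at a log2 fold change of 0.10 ± 0.025 (SE), edgeR adjusted p = 0.00496. Its retrocopy KIF4B had at most 11 counts in a library. KIF23, part of centralspindlin, had 275, 285 and 282 CPM in DMSO and 295, 296 and 296 CPM in PARGi, at 0.073 ± 0.024 (SE), edgeR adjusted p = 0.0293. KIF23 held its call in 8 of 16 alternatives. It was 0.048 with upper-quartile scaling, 0.058 with protein-coding genes alone, 0.073 with the replicate number as a block, 0.065 with that block and an offset for GC content and length, 0.057 without DMSO replicate 1 and 0.073 without PARGi replicate 1, 2 or 3, all without a call, and the adjusted p over 16 alternatives ran from 0.00812 to 0.179. KIF2C, KIF20B, KIF18A, KIF14, KIF11 and KIF20A lay between -0.047 and 0.066. KIF2C, the microtubule depolymerase MCAK, was above DMSO in all 3 PARGi libraries at 0.066 and did not pass (edgeR adjusted p = 0.0576), but 6 of 16 alternatives called it higher, DESeq2 and limma-voom among them (adjusted p over the alternatives 0.0176 to 0.284). KIF11, the motor that separates spindle poles, was below DMSO in all 3 PARGi libraries at -0.038 and did not pass (edgeR adjusted p = 0.296).

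None of the 5 cytokinesis genes passed, by edgeR at an adjusted p under 0.05, and none had an unadjusted p under 0.05 or was called by DESeq2 or limma-voom. PRC1, set aside above, is counted among the 5, and its values cannot be read as the level of the gene. ANLN, the anillin gene of the contractile ring, had 321, 331 and 330 CPM in DMSO and 329, 343 and 341 CPM in PARGi, with overlapping groups and a log2 fold change of 0.045 ± 0.025 (SE), edgeR adjusted p = 0.214. ECT2, which activates RhoA at the cleavage site, RACGAP1, the partner of KIF23, and ARHGAP11A had log2 fold changes of 0.035, 0.015 and -0.020. ARHGAP11B, a near-identical copy of ARHGAP11A, had 171 to 264 counts in a library, so reads may be divided between them.

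Standard errors of the 52 members ran from 0.023 to 0.045. The median over all 54 was 0.027, that of the other mitotic genes described below 0.029, and that of all tested genes, many of them at lower counts, 0.061. For 51 of the 52, the 95% interval lay within 1.2-fold of the control on either side, among them all 36 that were not called. Per kilobase of exon, the levels were highest for CCNB1 (148 CPM per kb), TOP2A (144), UBE2C (139), CDC20 (137) and TPX2 (118), and lowest for CDC25C (6.05), SGO1 (10.2) and CDCA3 (11.1). The strand setting of the counts is not given in the sources used here, and 20 members share exonic bases with a gene on the opposite strand, 7 of them called.

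Another 117 mitotic genes in 10 lists were taken beside the members, and all were tested. Of these, 41 rose (35%) and 6 fell (5.13%), where 13.2% of all tested genes were higher and 11% lower, and 22.1% and 13.6% of those with 10 CPM or more. Their median log2 fold change was 0.045. With upper-quartile scaling 28 were higher and 13 lower (9.81% and 14.4% of all tested genes), 68.3% of the calls in place of 87.2%. ANAPC10, MAD1L1 and LIN37 averaged only 1.12, 1.22 and 1.93 CPM. On the same strand, other genes share 1020 of 4522 exonic bases of ANAPC10, 752 of 2820 of LIN37 and 587 of 2520 of PMF1. None of these genes was called, and they were kept in the counts and medians. Of the 7 genes that restrain mitotic entry, 4 rose and 1 fell. The fall was in WEE1, from 88.6 ± 1.98 to 81.3 ± 2.94 CPM (SD, n = 3; log2 fold change -0.13, edgeR adjusted p = 0.00289). CHEK1 and GTSE1 did not pass, at 0.0045 and 0.033. CDKN1A, which encodes the CDK inhibitor p21 and is a p53 target, rose from 116.5 ± 2.55 to 194.6 ± 5.47 CPM (SD, n = 3; log2 fold change 0.74, edgeR adjusted p = 3.72e-15). SFN, 14-3-3 sigma, which holds cyclin B and CDK1 in the cytoplasm, rose by 0.39 (112 ± 6.07 to 147 ± 3.13 CPM, edgeR adjusted p = 2.1e-09). The member cyclin genes CCNB1, CCNB2 and CCNA2 were within 0.051 of 0 on the same scale.

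Regulators of entry and of transcription held several rises. Of the 10 entry kinases and PP2A inhibition genes, 6 rose (6 higher and 1 lower with upper-quartile scaling), and the smallest p-values were those of MASTL (Greatwall), from 68.6 ± 1.80 to 77.7 ± 2.43 CPM (log2 fold change 0.18), and MELK, from 131 ± 1.82 to 145 ± 1.46 CPM (0.15). Of 12 MuvB, DREAM and B-MYB genes, 4 rose (2 higher and 1 lower with upper-quartile scaling), and the list's median was -0.017. MYBL2, B-MYB, rose from 491 ± 13.7 to 540 ± 9.14 CPM (0.14, edgeR adjusted p = 0.000251), and TFDP1, the E2F partner, from 186 ± 1.36 to 213 ± 2.15 CPM (0.19, edgeR adjusted p = 2.07e-06). None of the 3 NF-Y genes, whose products bind CCAAT boxes, passed by edgeR, DESeq2 or limma-voom, and none had an unadjusted edgeR p under 0.05. Their log2 fold changes were -0.050 to -0.031, and with upper-quartile scaling 1 was called lower.

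The lists of chromosome and centromere complexes are small, and whether their counts differ was not tested. Of 8 condensin genes 4 rose, among them NCAPG2 (log2 fold change 0.11) and NCAPH (0.11), and with upper-quartile scaling 2 did. Of 9 cohesin genes 2 rose and 3 fell (1 and 4 with upper-quartile scaling): CDCA5, sororin, which locks cohesin after replication, rose from 135 ± 1.04 to 154 ± 2.03 CPM (0.20, edgeR adjusted p = 2.3e-06), and STAG2, a cohesin subunit, fell from 102 ± 2.59 to 93.0 ± 1.01 CPM (-0.13, edgeR adjusted p = 0.00133). Among 18 genes of centromere chromatin and the inner kinetochore, 7 rose and 1 fell (5 and 3 with upper-quartile scaling), with CENPH at 0.19 and CENPI at 0.16. Of 16 outer kinetochore genes 8 rose (5 higher and 1 lower with upper-quartile scaling). TRIP13, the ATPase that remodels the MAD2 protein, rose from 58.1 ± 1.58 to 69.0 ± 0.470 CPM (0.25, edgeR adjusted p = 6.96e-07), and DSN1 rose by 0.17. In percent, TRIP13 rose by 18.9% and MAD2L1 by 20.5%.

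Of 17 genes for the anaphase-promoting complex and its regulators, 1 rose, the subunit gene CDC16 (log2 fold change 0.10, edgeR adjusted p = 0.00794). The call was lost without PARGi replicate 2, at 0.079, and the adjusted p over 16 alternatives ran from 0.00412 to 0.0684. The median of the 17 was 0.025. Of 17 other spindle and kinesin genes 5 rose and 1 fell (2 and 1 with upper-quartile scaling), with CEP55, an abscission factor, at 0.12 and SPAG5 (astrin) at 0.11. SPAG5 shares 485 of 5472 exonic bases with another gene on its strand.

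**Figure D5:**
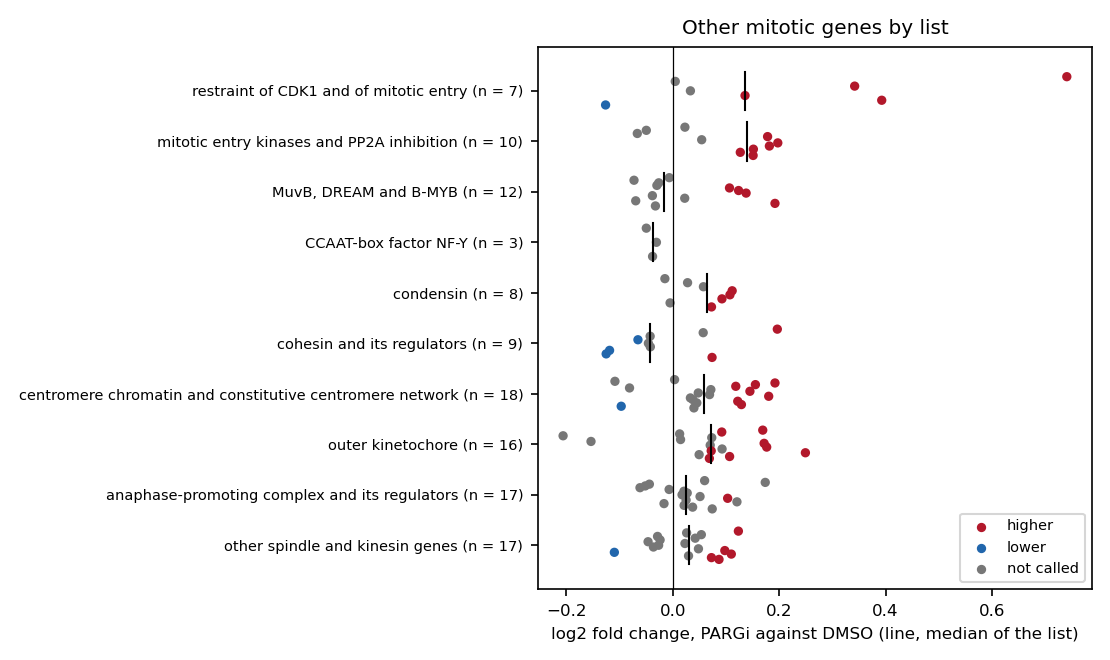
Log2 fold change of PARGi against DMSO (horizontal axis) for 117 other mitotic genes in 10 lists (rows); each point is a gene, red called higher, blue called lower, gray not called, and black lines are medians. CDKN1A stands far to the right at 0.74, and the anaphase-promoting complex holds 1 red point.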

How the data were processed

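RNA of 3 DMSO and 3 PARGi samples of U2OS cells was sequenced, with groups and replicate numbers taken from the titles. Per the labels' protocols, libraries were made with a stranded total RNA kit. The authors deposited raw whole-number counts per gene, with no header. The submitters' processing notes name cutadapt 1.18, STAR 2.7.3a, SAMtools 1.9, DESeq2 3.12, deepTools and hg38, with no roles. The annotation release and the strand setting are not given in the sources used here. Each file had 60708 rows, and 0 rows named no gene.

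Counts were tested with edgeR 4.0.16 in R 4.3.3 (filterByExpr, TMM scaling, glmQLFit, two-sided glmQLFTest on treatment, Benjamini-Hochberg adjustment over 20409 genes, threshold 0.05). CPM values are TMM-scaled, with the SD over 3 libraries. Standard errors come from the F statistic, whose root is the size of the fold change (log2) in units of its error. Library deviations used log2(CPM + 0.5). Symbols came from a gene name table, positions and exon overlaps from GENCODE 29. Figures were drawn with matplotlib 3.10.9.

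The members and lists were chosen with earlier results of these data known. The result of 1 further marker list is not reported here. All members are accounted for. Values per library are given for the called member with the smallest p in each direction of each of 9 role groups, or the most abundant one where none was called, and for the 5 with the smallest p in each direction. Other mitotic lists name up to 2 called genes with the smallest p, and CDKN1A always. SPC25, PTTG1, KIF23, SGO1 and other members with values were named after those were seen. So were SPC24, WEE1, CHEK1, GTSE1, ANAPC10, MAD1L1, LIN37 and PMF1 of the other mitotic genes. Alternatives were DESeq2 1.42.0, limma-voom (limma 3.58.1), DESeq2 size factors, upper-quartile scaling, no low-count filter, a minimum of 10 counts in each library, a fit to protein-coding genes, a replicate block, a loess offset for GC content and length (span 0.3, known for 98.1% of tested genes) with and without the block, and each library left out. In simulated counts for this comparison over 20409 genes, 77% of 100 genes changed 1.2-fold and 96% of 100 genes changed 1.5-fold were called in the right direction. The changed genes averaged at least 1 CPM and were drawn from outside the members and lists. No smaller change was simulated, whereas 48 of the 52 members other than NUSAP1 and PRC1 changed less than 1.1-fold.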

Additional observations from a re-analysis of the deposited data

How the results depend on the processing

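Over 16 alternatives, 11 of the 16 called members kept their call and direction in each. AURKB, CENPF, KIF23, MKI67 and PLK1 lost it in at least 1, and 5 members that had not passed did so in at least 1. The count of members called higher ran from 10 to 14, and that of members called lower from 1 to 6. The share of all tested genes called was taken only for the main fit, upper-quartile scaling and the replicate block. In the other fits, a change in the counts cannot be told from a change in calls over all genes. The median log2 fold change of the members changed sign with upper-quartile scaling (-0.0059) and without DMSO replicate 1 (-0.0015), and lay between -0.0015 and 0.029 as single libraries were left out. Among the other mitotic genes, the called genes ran from 33 to 49 as libraries were left out, and 13 were lower with upper-quartile scaling and 11 with protein-coding genes alone (33 higher), against 6. The cause was not tested. The groups share replicate numbers, but no label ties a number to a day or culture, so the numbers were not taken as pairs. Over 10635 genes, deviations of same-numbered libraries correlated at -0.0235, -0.0242 and -0.142, and those of differently numbered ones at -0.107 to 0.134. These are deviations from the means of small groups, so they cannot settle whether the numbers are pairs. With the replicate number as a block, 11 members were higher and 3 lower at a median of 0.019, and 35 other mitotic genes were higher and 5 lower (40 in all). With the GC and length offset and the replicate block together, the counts were 11 and 5 at a median of 0.011, and 39 and 9 (48 in all). NUSAP1 and PRC1 had 37 to 77 counts in a library, and their standard errors of 0.21 and 0.17 were above those of the other 52 members.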
